A study of Mus musculus with 12 samples.

Results

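The resting transcriptome of the mouse urothelium is described here from the 6 Stag2-WT libraries of a study with 12 libraries in all. They were chosen by genotype: 3 columns of the 1-week count table and 3 of the 1-month count table. Each library holds RNA from peeled urothelium, the epithelial lining of the urinary tract stripped from the tissue beneath it. All 12 mice, Stag2-WT and Stag2-KO alike, received food containing TMX for 1 week, and were taken 1 week or 1 month after the diet began. The strain, sex, age and Cre driver are not given in the sources used here. By the labels' batch numbers, the 1-week libraries are batch 1, replicates 1 and 2 of 1 month are batch 2 and replicate 3 of 1 month is batch 3. Time and batch cannot be told apart, and the time points were not tested against each other. What a batch number stands for is not given in the sources used here. The title of the last library and its library name carry different animal numbers, and its column was matched by the library name. Totals ran from 5940242 to 9497088 counts per library.

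The urothelium is a layered epithelium that keeps urine from the tissue below. Its surface is covered by umbrella cells, whose outer membrane is packed with plaques of uroplakin proteins. Beneath them lie intermediate cells and basal cells, which carry the keratin Krt5. It renews slowly in the unharmed bladder. Levels below are CPM, the counts scaled to the same total in every library. The kit reads the 3′ end of transcripts, so a transcript gives about 1 read whatever its length, and CPM were compared between genes without division by length. How well the 3′ end of each gene is captured and placed was not measured, and p-values cover the spread between these libraries only, each of which has an animal number of its own. Values per library are given in the order 1-week replicates 1, 2 and 3, then 1-month replicates 1, 2 and 3. Some genes are described as not overlapping between the tables. The share of all genes with this trait alone was not counted, so it is not shown to be particular to the genes named.

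Regulatory sequence is shown for the markers that define the surface and the base of this epithelium. RefSeq promoter sequence (GRCm38.p6, from 250 bases before to 50 after the start site, 5′ to 3′ on the gene's strand) was at hand for 4 of the 6 markers. Capitals mark matches, on either strand, to short motifs. The letters searched were AGATAA for factors of the GATA family, TGTTTA for those of the forkhead family, GGGCGG for those of the KLF and SP families and TATAAA for the box bound by TBP. They were searched because Gata3, Foxq1 and Klf5 had the highest means among the transcription factors listed here. No 2 matches overlapped.
Upk1a, chr7:30612685-30612984, minus strand: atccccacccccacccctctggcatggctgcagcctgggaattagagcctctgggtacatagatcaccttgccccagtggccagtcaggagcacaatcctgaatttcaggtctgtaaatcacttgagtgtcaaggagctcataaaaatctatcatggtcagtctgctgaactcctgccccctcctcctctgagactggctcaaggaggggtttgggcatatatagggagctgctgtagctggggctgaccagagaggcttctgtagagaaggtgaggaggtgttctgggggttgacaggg
Upk3a, chr15:85016891-85017190, plus strand: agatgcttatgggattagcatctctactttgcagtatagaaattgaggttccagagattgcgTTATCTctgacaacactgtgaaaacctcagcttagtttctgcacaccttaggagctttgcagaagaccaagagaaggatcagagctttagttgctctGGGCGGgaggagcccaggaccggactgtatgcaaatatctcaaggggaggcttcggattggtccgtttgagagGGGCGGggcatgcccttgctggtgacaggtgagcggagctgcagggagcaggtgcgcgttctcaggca
Krt20, chr11:99438104-99438403, minus strand: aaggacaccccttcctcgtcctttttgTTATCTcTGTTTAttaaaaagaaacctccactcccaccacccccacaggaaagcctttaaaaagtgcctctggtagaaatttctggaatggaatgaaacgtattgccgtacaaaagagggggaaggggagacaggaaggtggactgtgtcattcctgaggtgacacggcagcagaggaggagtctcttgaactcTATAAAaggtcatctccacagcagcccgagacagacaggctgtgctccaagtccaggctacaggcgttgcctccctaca
Krt5, chr15:101712856-101713155, minus strand: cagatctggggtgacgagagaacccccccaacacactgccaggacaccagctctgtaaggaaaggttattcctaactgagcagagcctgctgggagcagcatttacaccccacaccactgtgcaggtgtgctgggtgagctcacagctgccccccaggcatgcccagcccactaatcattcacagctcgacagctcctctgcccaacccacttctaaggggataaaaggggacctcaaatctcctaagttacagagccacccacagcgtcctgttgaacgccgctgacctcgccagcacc
The Krt20 promoter held 1 match each to the GATA, forkhead and TATA letters, and the Upk3a promoter held 1 GATA match and 2 of the KLF and SP letters. None of the 4 motifs stood in the Upk1a and Krt5 windows, and the last 30 bases of the Upk1a window were not found in a GENCODE transcript of that gene. Of 32851 promoters in the table, 11.2% held the GATA letters, 13.4% the forkhead letters, 35.7% the KLF and SP letters and 13.6% the TATA letters. These matches describe the letters and say nothing of binding.

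The label of the tissue was first checked against its markers, and all 6 were found in every library. Upk1a, a tetraspanin of the plaque, was the most abundant of them, at 3378, 2924 and 4269 CPM at 1 week and 11060.3, 6957 and 4810.4 CPM at 1 month. It stood between rank 4 and rank 31 of 23337 genes, and its 1-month libraries were all above its 1-week libraries. Upk3a, the plaque protein that pairs with Upk1b, had 2615, 2211 and 2479 CPM, then 3726, 3307 and 3029.8 CPM. Its ranks lay between 27 and 53, and the libraries of the 2 tables did not overlap here either. Upk2, the partner of Upk1a, had 917, 763 and 1528 CPM, then 4142, 1979 and 1229 CPM, with overlap between the tables. Upk1b had 802, 1092 and 769.9 CPM, then 439, 365 and 1156 CPM, and its lowest libraries were the pair of batch 2. Upk3b, a relative of Upk3a, had 85.3, 66 and 111 CPM, then 21.7, 21.9 and 13 CPM.

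The order of uroplakin levels was Upk1a, Upk3a, Upk2, Upk1b and Upk3b in the means of both tables. Upk1a was above Upk3a in all 6 libraries, and so was Upk1b above Upk3b. Upk3a against Upk2 and Upk2 against Upk1b kept their order in 5 of 6 libraries each, so these neighbours did not separate in every animal. Among 14 gene pairs compared within libraries, Upk2 minus Upk1a was -1.75 ± 0.24 on the log2 CPM scale (SD, n = 6, exact sign permutation test, two-sided, p = 0.03125, Benjamini-Hochberg adjusted p = 0.0337). That raw p is the smallest that 6 libraries allow, and 13 of the 14 pairs reached it. The test takes no account of batch, so it states little beyond a shared direction. The difference between Upk2 and Upk1a was nearly the same in both tables, with means of -1.77 and -1.73. Upk1b minus Upk1a was -2.82 ± 1.31 and Upk3a minus Upk1b was 2.01 ± 0.90, each in the same direction in 6 of 6 libraries with the same adjusted p. Both pairs that include Upk1b spread more between libraries than the pair without it.

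**Figure D1:**
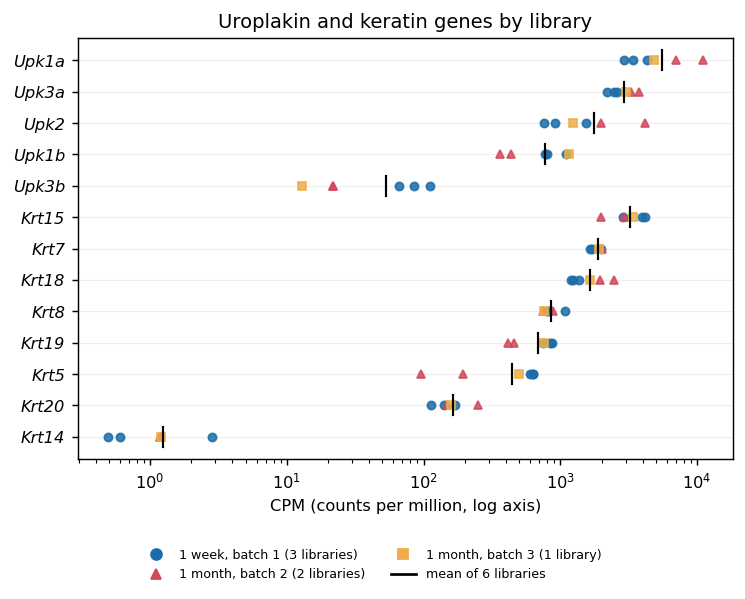
CPM of 5 uroplakin and 8 keratin genes (log axis) in the 6 wild-type libraries, with symbols for batch and a black bar for the mean. Upk1a is the highest uroplakin in every library and Krt15 has the highest mean of the keratins, Krt5 and Upk1b are low in the pair of batch 2, and Krt14 stays at or under 2.84 CPM.

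Among keratins, which form the filaments of epithelial cells, Krt15 had the highest mean and was above Krt7 and Krt18 in 5 of 6 libraries, the exception being 1-month replicate 1. It had 4158, 3946 and 2885 CPM at 1 week and 1968, 2898 and 3421 CPM at 1 month, at ranks from 14 to 72. The keratins of simple and surface epithelium followed. Krt7 was steady at 1716, 1658, 1991, 2026, 1955 and 1905 CPM, a range of 1.22-fold. Krt18 had 1373, 1233 and 1191 CPM, then 2464, 1953 and 1642 CPM, without overlap, while its partner Krt8 lay between 748 and 1082 CPM with overlap. Krt19 lay between 411 and 869.5 CPM. The basal keratin Krt5 had 599.7, 630.1 and 636 CPM at 1 week but 95.5, 193 and 498 CPM at 1 month, with the batch 2 libraries lowest. The umbrella cell keratin Krt20 was lower and more even, at 139.8, 113 and 169 CPM, then 249.7, 147 and 158 CPM.

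Of the basal and squamous keratins, Krt14, Krt6a and Krt17 were nearly missing, unlike Krt5 and Krt15. Krt14 had between 0.49 and 2.84 CPM, Krt6a had counts in 1 library (0.168 CPM) and Krt17 in 1 library (0.12 CPM), where the floor of 3 counts is 0.316 to 0.505 CPM. Krt15 minus Krt14 was 11.16 ± 0.99 on the log2 CPM scale, and Krt5 minus Krt15 was -3.11 ± 0.84. Krt8 minus Krt18 was -0.92 ± 0.51 and Krt7 minus Krt19 was 1.52 ± 0.55, and these 4 differences had 1 direction in 6 of 6 libraries (exact sign permutation test, n = 6, adjusted p = 0.0337). Krt5 minus Krt20 was 1.19 ± 1.45, with Krt5 higher in 5 of 6 libraries (exact sign permutation test, n = 6, adjusted p = 0.0938), and it did not pass. The exception was 1-month replicate 1. The order of these markers, 1 of the base and 1 of the surface, was therefore not the same in every animal. As a family, the 51 keratin genes held 0.835% to 0.978% of all counts, and 8 of them had at least 10 CPM in every library.

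Beside the uroplakins, 22 genes known from umbrella cells were listed, keratins among them. Of these, 17 had a mean of at least 10 CPM and 2 had 0 counts in all libraries. The highest mean was that of Gsta4, a glutathione transferase, at 2342 ± 296 CPM over the 6 libraries (SD). Psca, a surface protein of the urothelium, followed at 2018 ± 672 CPM, then Sprr1a, a cornified-envelope precursor, at 1979 ± 440.0 CPM. Sprr1a made up at least 99.8% of the counts of its family, but Sprr2 genes are close copies, so their reads can be lost where they match several places. The gasdermin Gsdmc2 varied widely: 290.2, 712 and 299 CPM, then 35.4, 37.2 and 342 CPM, a range of 20.1-fold, and its relative Gsdmc3, a close copy whose reads may not be told apart from it, by 103-fold. Mal, a protein of apical transport, was at 920.4, 1047 and 960.1 CPM in the 1-week libraries and at 527, 525 and 501 CPM in the 1-month ones. Rab27b, a GTPase of vesicle traffic to the apical membrane, likewise did not overlap, with 356, 301 and 365 CPM, then 144, 132 and 128 CPM.

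A few genes dominated each library. The most abundant was Rn45s, the precursor of ribosomal RNA, at 38436, 34811 and 37825 CPM at 1 week and 28341, 68101 and 97758 CPM at 1 month. It took between 2.83% and 9.78% of counts, although the libraries were primed on poly(A). Gstm1, a glutathione transferase that conjugates reactive compounds, was second in all 6, at 19937, 21391 and 17084 CPM, then 26078, 18185 and 15955 CPM. S100a6, a small calcium-binding protein, had 9984, 9849, 10125, 9856, 8009.7 and 8571 CPM, and stood at ranks from 3 to 6. Actb followed at 7727 ± 1814 CPM, then the nuclear RNA Malat1 at 6893 ± 3011 CPM. Malat1 was higher in each 1-week library (at least 7831 CPM) than in each 1-month library (at most 6409.9 CPM).

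Upk1a was eighth by mean, and it was the most abundant urothelial marker. Other genes of the first 25 were mostly ribosomal: Rplp1 had 6423 ± 1207 CPM and Rps20 6094 ± 3691 CPM. Hsp90ab1, a chaperone, had 5541 ± 1948 CPM, Eef2, an elongation factor, 3777 ± 911 CPM and Ftl1, the light chain of the iron store ferritin, 3696 ± 462 CPM. Col1a1, the chain of fibrillar collagen made by fibroblasts, was 20th and Krt15 was 23rd. The 10 most abundant genes took 10.5% to 16.0% of counts, and without Rn45s 7.43% to 11.5%. The number of genes needed for 50% of counts was 429, 450 and 475 at 1 week and 263, 325 and 296 at 1 month, so the 1-month libraries were all more concentrated.

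**Figure D2:**
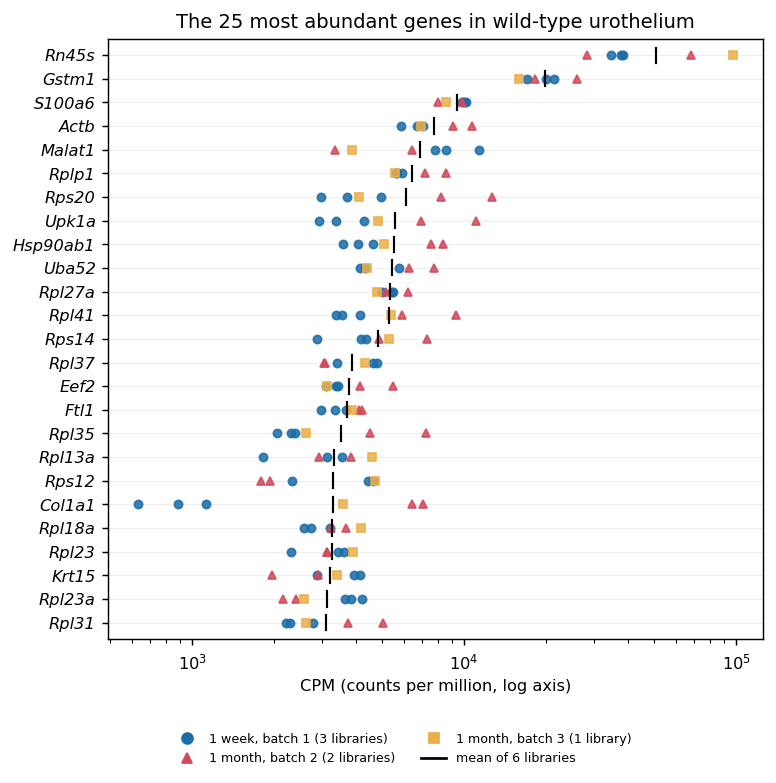
CPM (log axis) of the 25 genes with the highest mean over the 6 wild-type libraries, with symbols for batch. Rn45s and Gstm1 are first and second in every library, whereas Col1a1 runs from 632 to 7035 CPM and Rps20 from 2965 to 12644 CPM.

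Counts were also summed over gene families. The 86 genes of the cytosolic ribosome held 16.6% ± 1.34 of counts at 1 week and 16.9% ± 1.80 at 1 month (SD, n = 3). They ranked first in every library. The 24 glutathione transferase genes came second in each, with 2.35% ± 0.24 and 2.44% ± 0.57, and Gstm1 alone made up 80.0% to 84.8% of them. Nuclear genes of the respiratory chain held 1.41% ± 0.20 and 1.61% ± 0.15. No mitochondrially encoded gene is in the tables used here. The 5 uroplakins held 0.800% ± 0.11 at 1 week and 1.41% ± 0.47 at 1 month, and ranked between 3 and 7 among 30 families. S100 genes held 0.985% to 1.29%, of which S100a6 was 76.1% to 84.1%. The 360 solute carrier genes together held 0.592% to 0.671%, and Slc25a3, the mitochondrial phosphate carrier and the highest of them by mean, was at most 4.59% of them. Mucin genes were near the floor: Muc1, a membrane mucin, had at most 1.01 CPM. Of 9 mucin genes, 0 reached 10 CPM in all libraries.

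Among detoxifying enzymes other than transferases, the single genes Fmo5 and Adh1 were prominent, at ranks 33 and 37 by mean. As families, the aldehyde dehydrogenases held 0.142% of counts in mean and the cytochromes P450 0.0619%, at ranks 17 and 26 of the families. Fmo5, a flavin monooxygenase, had 2870.3 ± 423 CPM over the 6 libraries, at ranks from 25 to 49. Adh1, an alcohol dehydrogenase that also acts on retinol, had 1471, 1326 and 2335 CPM, then 4886, 3628 and 2565 CPM, without overlap between the tables. Aldh2, the mitochondrial aldehyde dehydrogenase, was at 154, 137 and 179.8 CPM, then at 1074, 956 and 396 CPM. Aldh3a1, a cytosolic relative, was at 307, 509 and 410.0 CPM, then at 44.6, 93.5 and 307 CPM, so Aldh3a1 was higher in each 1-week library and Aldh2 in each 1-month library. The cytochromes P450 were low by comparison, and Cyp2f2, the highest by mean, was at 195 ± 86.1 CPM.

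Among 43 genes for transcription factors, 37 had a mean of at least 10 CPM. Foxq1, a forkhead factor, led with 1400.3, 1609.6, 1891, 1751, 1551 and 1489.7 CPM. Gata3, a factor of luminal urothelial identity, came next with 909.8, 895, 1152, 1204, 1187 and 794 CPM. Both were steady, with ranges of 1.35-fold and 1.52-fold. Klf5, a factor needed for urothelial maturation, had 850.0 ± 166 CPM at 1 week and 615 ± 55.9 CPM at 1 month (SD, n = 3). The order Foxq1, Gata3, Klf5 held in all 6 libraries, and these were the only 2 of 36 neighbouring positions in the list that did. Tbx2 (172 ± 14.3 CPM), Rxra (172 ± 15.6 CPM) and Foxa1 (78.1 ± 16.4 CPM) varied by at most 1.66-fold.

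Some well known urothelial factors were low or uneven at the RNA level. Pparg, the nuclear receptor that drives luminal differentiation, had 40.6, 74.5 and 62.5 CPM, then 5.22, 4.2 and 17.1 CPM. Trp63, the master factor of basal cells, had 85.9, 79.1 and 79.1 CPM, then 12.6, 20.2 and 34.1 CPM. Neither overlapped between the tables, a trait whose share over all genes was not counted. Ehf, an epithelial ETS factor, did not overlap either, with 481, 474 and 553 CPM, then 152, 175 and 85.6 CPM. Hes1, a target of Notch, had 306, 456 and 212 CPM, then 32.3, 47.1 and 213 CPM, and here only the batch 2 libraries stood apart. Grhl3, a factor of umbrella cells, had 29.5 ± 7.86 CPM, and Elf3, a luminal ETS factor, 26.8 ± 15.9 CPM. Foxa2 had 0 counts in all 6 libraries. Gata3 minus Trp63 was 4.62 ± 1.31 and Klf5 minus Elf3 was 4.95 ± 0.92 on the log2 CPM scale, positive in 6 of 6 libraries (exact sign permutation test, n = 6, adjusted p = 0.0337).

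**Figure D3:**
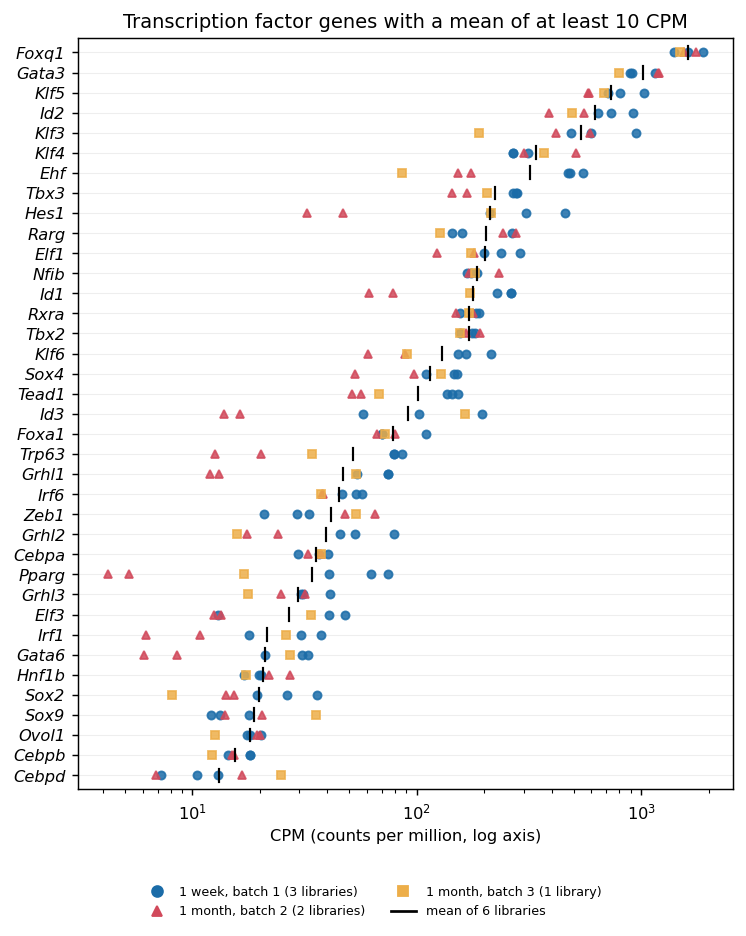
CPM (log axis) of the 37 transcription factor genes with a mean of at least 10 CPM, with symbols for batch and a black bar for the mean of 6. Foxq1 and Gata3 keep their place in every library, while Hes1, Id3 and Pparg are lowest in the pair of batch 2.

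The list of secreted and surface defence genes was dominated by few members. Wfdc2, a secreted protease inhibitor, had 1789, 2069.9 and 1695 CPM, then 3400.4, 3090.2 and 2604 CPM, without overlap. Psca is given above, and Timp2, an inhibitor of matrix proteases, had 1792 ± 586 CPM. Ly6d, a surface protein of epithelia, had 2106, 2160.3 and 1704 CPM, then 819, 1224 and 2403 CPM. Below these 4 the levels dropped: Ly6e had 334 ± 149 CPM and the secreted chaperone Clu 331 ± 98.5 CPM. Ly6d was above Ly6e in all 6 libraries. Of 45 genes in the tables, 13 were at or under 3 counts in every library. Lcn2, an iron-trapping defence protein, had at most 0.755 CPM.

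Secreted signals were lower. Of 39 genes, 20 had a mean of at least 10 CPM. Igfbp2, a binder of insulin-like growth factors, had the highest mean of 6, at 328 ± 205 CPM, but was above Bmp2 in only 4 of 6 libraries and below it in the 1-month mean. Bmp2 had 160.2, 184 and 141 CPM, then 271, 277 and 217 CPM, and Wnt4 148, 169 and 144 CPM, then 223, 242 and 223 CPM. For Wnt5a the difference was the other way, with 245, 259 and 331 CPM, then 63, 84.6 and 76.8 CPM. Bmp4, a signal known from mesenchymal cells, had 37.5, 57.8 and 66.2 CPM, then 308, 353 and 150.0 CPM, and its batch 2 libraries were at least 2-fold above all others. Wnt7b, a Wnt ligand of epithelia, ranged least of the 20 genes, at 93.0 ± 8.81 CPM and 1.26-fold. Shh, made by basal cells, had 77.7, 85 and 57.5 CPM, then 20.2, 26.1 and 78.5 CPM. Ptgs2, the inducible cyclooxygenase, was at or under 0.526 CPM and Areg, an EGF receptor ligand, at or under 4.93 CPM. Only 1 of 19 neighbours in this list, Tgfb2 over Igf1, kept its order in all libraries.

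Of 61 transport genes in the tables, 38 had a mean of at least 10 CPM. Fxyd3, a small regulator of the sodium pump, had the highest mean and hardly varied: 816, 829, 764, 896, 861 and 849 CPM. Atp1b3 and Atp1b1, beta subunits of that pump, had 144 ± 23.4 and 45.2 ± 30 CPM. Of the water channels, Aqp3, known in urothelium, had 219.9, 264 and 217 CPM, then 139, 127 and 114 CPM, and Aqp1, known in vessel walls, had 145, 180.2 and 146 CPM, then 339, 561 and 249.9 CPM. Their order was thus opposite in the tables, with Aqp3 higher in each 1-week library and Aqp1 higher in each 1-month library.

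A stretch-sensitive channel and channels that carry sodium were present at low to modest levels. The listed channel genes Piezo1, Piezo2 and Asic1 were not found under these symbols, so their levels are not known here. Trpv4, a stretch-sensitive cation channel, had 46.1 ± 9.66 CPM. The sodium channel subunits Scnn1b and Scnn1g had 22.2 ± 6.97 and 23.3 ± 13 CPM, and Scnn1a 3.64 ± 1.73 CPM. The potassium channel Kcnk1 had 184 ± 36.9 CPM. Slc14a1, the urea carrier, had 72.2 ± 20.6 CPM. Aqp4 and the ammonia channel Rhcg had 0 counts in all libraries.

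Adhesion genes formed a broad list without a leader, 51 of 61 having a mean of at least 10 CPM. Cdh1, the cadherin of epithelial junctions, had 875, 763 and 689 CPM, then 258, 402 and 795 CPM. Its partner Ctnnb1 had 805, 904 and 510.3 CPM, then 278, 342 and 804 CPM. In both, 1-month replicate 3 stood with the 1-week libraries and the pair of batch 2 below. Ezr, which anchors the apical membrane (488 ± 58 CPM), Cldn4, the main tight junction claudin here (443 ± 37.6 CPM), and Perp, a desmosome protein (402 ± 29.8 CPM), were steady, each within 1.36-fold. Dsp, the desmosome's link to keratin, had 369 ± 108 CPM. Cldn4 minus Cldn7 was 2.85 ± 0.53, Cdh1 minus Cdh3 8.93 ± 0.95 and Itgb4 minus Itga6 -0.82 ± 0.31 on the log2 CPM scale. These integrins are the 2 chains of the hemidesmosome receptor, and all 3 differences had 1 direction in 6 of 6 libraries (exact sign permutation test, n = 6, adjusted p = 0.0337). Cdh3 had at most 3.19 CPM and was at or under the floor of 3 counts in both batch 2 libraries. The size of its difference from Cdh1 therefore depends on the prior count, and was 9.51 ± 1.67 with a prior count of 0.5.

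Some junction genes were missing or differed by table. Cldn3 had counts in 1 library (0.302 CPM), and Dsc3, a desmosomal cadherin of squamous epithelium, had 1 library at 0.105 CPM. Ocln, an integral tight junction protein, was low at 6.55 ± 2.62 CPM. Tjp1, its scaffold, had 147, 120.3 and 204 CPM, then 42.4, 54.3 and 35.8 CPM. Col17a1, a hemidesmosome collagen of basal cells, had 40.5, 35.7 and 80.7 CPM, then 3.87, 11.6 and 7.85 CPM. In the adhesion list 0 of 50 neighbours kept their order in all 6 libraries, although 70.1% of all its gene pairs did.

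Genes of dividing cells were scarce. The summed level of 26 proliferation genes was 95.1 to 130 CPM at 1 week and 108 to 141 CPM at 1 month. Of these, 4 had a mean of at least 10 CPM: Mcm3 (16.3 CPM), Tyms (16.1 CPM), Pcna (13.1 CPM) and Top2a (11.6 CPM). Mki67, present in cycling cells, had 2.7, 3.01 and 1.9 CPM, then 20.7, 8.24 and 3.62 CPM, and 1-month replicate 1 was highest. Cdk1, the mitotic kinase, had at most 0.906 CPM and Ccnb1, its cyclin, at most 2.36 CPM. Early response genes, which handling of tissue can induce, had their highest means in Klf4 (339 ± 93.7 CPM), Fosl2 (273 ± 70.1 CPM) and Jund (195 ± 85.5 CPM). Fos had 33.5, 37.4 and 58.5 CPM, then 14.6, 38.5 and 13.1 CPM. Atf3, induced by stress, had at most 1.47 CPM.

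Markers of other cells were present in the peeled layer. In bulk RNA, fewer cells of a type and less RNA per cell cannot be told apart. The 15 fibroblast and matrix genes summed to 6015, 7233 and 4773 CPM at 1 week and to 17139, 20087 and 13239 CPM at 1 month, which is more than the uroplakins together in 3 libraries. Col1a1 had 889, 1126 and 632 CPM, then 6451, 7035 and 3574 CPM, and Sparc, a matrix-binding protein, 858, 833 and 804 CPM, then 5147, 5529.8 and 2561 CPM. Dcn, a proteoglycan of fibroblasts, was far more even, at 1898, 2101 and 1359 CPM, then 2123, 2639.8 and 2307 CPM. Col1a2, whose chain joins that of Col1a1 in type I collagen, had 1031, 1704 and 1009 CPM, then 721, 1501 and 2306 CPM. Members of this list therefore differed in whether they stood apart between the tables.

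The 20 leukocyte genes summed to 384 to 579 CPM at 1 week and to 1378 to 1774 CPM at 1 month. Cd74, of antigen-presenting cells, had 119.5, 70.3 and 120.0 CPM, then 430.1, 573 and 289.6 CPM, and Csf1r, of macrophages, 52.5, 27.4 and 33.5 CPM, then 307, 362 and 194 CPM. The pan-leukocyte gene Ptprc was alike in both, at 22.2 ± 3.07 and 18.9 ± 9.98 CPM (SD, n = 3). Smooth muscle genes summed to 410 to 650 CPM at 1 week and 633, 935 and 2409 CPM at 1 month. Mylk had the highest mean of them, at 552 CPM, against 114 CPM for Acta2, the next. The muscle genes Des and Acta2 were highest in 1-month replicate 3, at 138 and 418 CPM. The summed level of the 8 endothelial genes was even, at 223 to 303 CPM. Of the 8, 1 gene, Eng, was at least 2-fold higher in both batch 2 libraries than in all others, and 0 were lower by that rule. Hba-a1, Hba-a2, Pbsn and Svs2, genes of red cells and male glands, had 0 counts, and the Hba genes are near-identical copies. The listed red cell genes Hbb-bs and Hbb-bt were not found under these symbols, so their levels are not known here. Uchl1, listed as a marker of nerves, had 1372 ± 562 CPM, at ranks from 57 to 166. Its list also holds the genes of red cells and male glands, with 12 genes in the tables. Of these, Uchl1 alone had a mean of at least 10 CPM, and 7 were at or under 3 counts in every library. The part of these cells in the levels above was not tested.

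**Figure D4:**
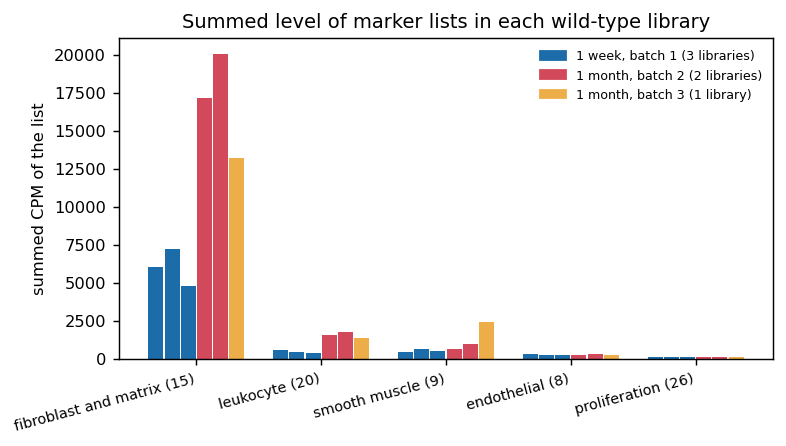
Summed CPM of 5 lists of marker genes (number of genes in brackets) in each of the 6 wild-type libraries, coloured by batch. Fibroblast and matrix genes sum to 4773 to 7233 CPM at 1 week and to 13239 to 20087 CPM at 1 month, and proliferation genes stay at or under 141 CPM.

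Which ranks held in both tables was then counted over all genes. The top 10 genes of the tables shared 6, the top 100 shared 79 and the top 500 shared 363. In every single library 64 genes stood among the top 100. There were 6556 genes at 10 CPM or more in all 6 libraries, 1001 at 100 CPM or more and 77 at 1000 CPM or more. Across genes with a mean of at least 10 CPM, the Spearman correlation of table means was 0.93 for 38 transport genes, 0.90 for 37 transcription factors, 0.87 for 51 adhesion genes, 0.87 for 18 defence genes and 0.73 for 20 signals. These describe genes of the same libraries, which share depth and batch, and are no test.

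**Figure D5:**
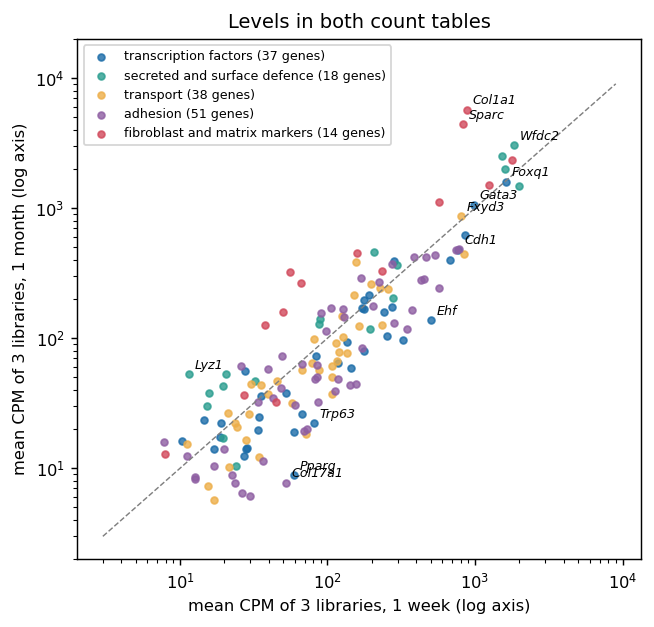
Mean CPM at 1 week against mean CPM at 1 month (log axes, 3 libraries each) for genes of 5 lists with a mean of at least 10 CPM, with a dashed line of equal level. Foxq1, Gata3 and Fxyd3 lie near the line, Col1a1 and Sparc above it, and Pparg, Trp63 and Ehf below it.

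Ranks that did not hold were found with a rule of size: no overlap of libraries between the tables and at least 4-fold between their means, among 9144 genes with a mean of at least 10 CPM in either. By it 100 genes (1.09%) were higher at 1 month and 171 (1.87%) lower. The split depended on scaling: it was 123 and 134 with TMM scaling, and 152 and 97 with the size factors of DESeq2. The median log2 ratio of these genes was -0.22 on library totals, -0.11 with TMM and 0.01 with size factors, so directions here are relative to that shift. Of the 15 fibroblast and matrix genes 4 of 14 tested were higher and 0 lower, and of leukocyte genes 4 of 12 tested were higher and 0 lower. Of adhesion genes 0 of 52 were higher and 3 lower. Of 5 uroplakins 1 was lower, Upk3b, and of 37 transcription factors 1 was lower, Pparg, with 0 higher in both lists. Of transport genes 0 of 38 were in either class. Of 6 tested proliferation genes 1 was higher, Mki67, and 0 lower. The rule's largest ratios among lower genes were for Snord87 (19.9 to 1.01 CPM in mean), Plekha7 (19 to 1.12 CPM), an adherens junction protein, and Cpeb4 (25.8 to 1.94 CPM), a regulator of translation. Among higher genes were Nfatc4, a calcium-regulated factor (17.1 to 156 CPM), Gpx3, a secreted peroxidase (41.8 to 329 CPM), and Fcrls, of macrophages (3.45 to 36.8 CPM). Time and batch cannot be told apart in these values.

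The libraries of 1 month were not alike. Over 8539 genes, 1-month replicates 1 and 2 (batch 2) had a Spearman correlation of 0.970 with each other. With replicate 3 (batch 3) they had 0.805 and 0.845, and with the 1-week libraries 0.676 to 0.796. Replicate 3 of 1 month had 0.790 to 0.855 with the 1-week libraries, and these had 0.931 to 0.978 among themselves. By a rule of size chosen after these values were seen, 94 genes (1.1%) were at least 2-fold higher in both batch 2 libraries than in all 4 others, and 665 (7.79%) at least 2-fold lower. The cytosolic ribosome showed this within 1 family: 0 of 80 tested genes were in the higher class and 16 in the lower. Rps23 had 2529, 3223 and 1872 CPM, then 373, 443 and 2264 CPM, while Rps20 had 3695, 2965 and 4951 CPM, then 12644, 8198 and 4111 CPM. Both encode proteins of the small ribosomal subunit, and their batch 2 libraries lay on opposite sides of the others. Eef1a1, the elongation factor that delivers transfer RNA, had 4209, 5276 and 3405 CPM, then 1008, 978 and 3629.7 CPM. Tmsb4x, which binds actin monomers, had 1342, 2291 and 538 CPM, then 56.7, 74.3 and 1332 CPM.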

How the data were processed

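RNA from peeled urothelium of 12 mice was measured with a kit that primes on poly(A) and reads 3′ ends in the sense direction, per the labels' protocols. The deposited values are raw counts per gene symbol, in 1 table for each time, made with HTSeq per the file names given in the labels' descriptions. The submitters' processing notes also name Bowtie, TopHat, DESeq2 and the build mm10, with no role or version. The annotation is not given in the sources used here. Replicates were numbered in accession order and pair no animals. Replicates differed by more than counting error in every pair (chi-square per degree of freedom at least 9.10), so each library was 1 sample.

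CPM were computed on the library total of 23337 genes. The floor of 3 counts is 0.316 to 0.505 CPM and covers counting error only. Gene pairs were tested with a two-sided exact sign permutation of log2 CPM (prior count 2) over 6 libraries, adjusted by Benjamini-Hochberg over 14 pairs with a threshold of 0.05. Scaling alternatives used edgeR 4.0.16 and DESeq2 1.42.0 in R 4.3.3. Genes with a mean of at least 20 counts, totals without Rn45s or the 10 most abundant genes, other minimums, prior count 0.5 and leaving out each library were tried too. The rule of size between the tables was tried on simulated data, with 200 genes changed 8-fold and no difference between batches. That run therefore says nothing of how the rule behaves with the batches seen here.

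Genes named are the 25 most abundant, the markers, the gene pairs, the 6 highest of each list, the 3 highest of each family, the 10 largest ratios per direction between tables, and genes at or under the floor. Chosen after their values were seen were Adh1, Aldh3a1, Aqp3, Areg, Atf3, Atp1b3, Ccnb1, Cdk1, Col17a1, Dsp, Ehf, Eef1a1, Fmo5, Fos, Foxa1, Grhl3, Gsdmc2, Gsdmc3, Hes1, Id3, Igf1, Kcnk1, Lcn2, Ocln, Pparg, Ptgs2, Ptprc, Rab27b, Rps23, Rxra, the Scnn1 genes, Shh, Slc14a1, Tbx2, Tgfb2, Tjp1, Tmsb4x, Trpv4, Wnt7b and the pancreatic genes. The samples and lists were chosen with earlier results of these data known. Chromosome positions of promoters come from RefSeq on GRCm38.p6, the assembly of mm10. The Stag2-KO libraries are not analysed here. Results for 1 of the 14 gene pairs and for a few single genes are not reported here.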

Additional observations from a re-analysis of the deposited data

How the results depend on the processing

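Counts of genes that differ between the tables depended most on the processing. Genes higher at 1 month numbered 100 on library totals, 152 with DESeq2 size factors and 224 with a minimum of 1 CPM, and 90 to 150 when 1 library was left out. Genes lower at 1 month numbered 171, then 97 with size factors, 381 with a minimum of 1 CPM, and 118 to 715 when 1 library was left out. The 715 came without 1-month replicate 3, the batch 3 library. The 10 most abundant genes took 12.7% of counts in mean and 8.57% when Rn45s was left out, where an eleventh gene takes its place. Across the other results and alternatives run, gene pairs with prior count 0.5 included, values stayed within 1 SD or counts within 1.5 times. With 5 libraries the sign test cannot reach the threshold, so pairs without 1 library or by table were compared as values, and each kept its direction. Totals without mitochondrially encoded genes could not be formed, as the tables hold 0 of them. No paired analysis was possible because replicate numbers come from accession order. At this depth, genes at or under 3 counts cannot be ordered.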

Other observations

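Genes of the exocrine pancreas, chosen after their values were seen, were detected in the wild-type libraries of batch 2. Pnlip, the pancreatic lipase, had 0.368, 0.12 and 0.737 CPM at 1 week and 94.3, 35.5 and 0 CPM in 1-month replicates 1, 2 and 3. Prss2, a trypsinogen, had 0.123, 0.12 and 1.05 CPM, then 66.3, 28.1 and 0 CPM, and Ctrb1, a chymotrypsinogen, 0.245, 0.481 and 0.421 CPM, then 48.5, 15.5 and 0 CPM. Replicate 1 of 1 month was highest for each of these 3 and replicate 3 had no count. Their source was not tested. Of the 10 genes with the largest ratio of 1 month over 1 week, 3 are of the same kind: Rnase1, Ctrl and Cpb1 had 29, 30 and 24.9 CPM in replicate 1 and 0.302, 1.66 and 2.11 CPM in replicate 3. Cela1, by contrast, was found in every library, at 71.4 to 118 CPM at 1 week and 92.8 to 253 CPM at 1 month.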
